A study of Mus musculus with 6 samples.

Results

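Macrophages owe their identity to a small set of DNA-binding proteins, and 9 genes that encode such factors are described here across 6 RNA-seq libraries. The genes, Spi1, Cebpa, Cebpb, Irf8, Irf5, Maf, Klf4, Runx1 and Bhlhe41, were chosen by name for their known roles, with earlier results of these data in view. They are 9 of 55421 genes in the deposited count table and 9 of the 13588 genes that passed the filter on low counts, so each of them was tested.

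The cells were bone marrow-derived macrophages of the mouse, primary cells obtained by culturing marrow progenitors. The knockout group held 3 libraries labelled Tmem175flox/flox Lyz2-Cre+/-, whose genotype entry reads Tmem175-/-, and the wild type group held 3 libraries labelled WT. TMEM175 is an ion channel of lysosomes, and the comparison asks how its loss bears on these cells. Cre recombinase is expressed here from the lysozyme gene Lyz2, which is active in myeloid cells, so the floxed allele is removed only in cells that switch that gene on. None of the 6 libraries carried Cre alone or floxed alleles alone, so loss of Tmem175, the presence of Cre, the altered Lyz2 allele and strain background cannot be told apart. The labels name no treatment and no age, and the design text speaks of wells without naming separate animals. The spread behind the p-values is thus that between wells, and it may be technical only.

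PU.1, the product of Spi1, opens chromatin at myeloid enhancers together with the C/EBP factors encoded by Cebpa and Cebpb. RUNX1 acts upstream of PU.1 in blood formation, and IRF8 binds with PU.1 at composite sites and directs progenitors towards monocytes. IRF5 carries signals of Toll-like receptors to cytokine genes, while c-MAF and KLF4 are known from the late differentiation and alternative activation of macrophages. BHLHE41 is a repressor known with its paralog BHLHE40 from the self-renewal of alveolar macrophages.

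Total counts ranged from 24179548 to 31542741 per library. Levels are in CPM, the counts of a gene relative to a TMM-scaled library total. Tmem175 stood at 14.3, 13.2 and 12.1 CPM in knockout against 32.8, 33.4 and 33.2 CPM in wild type libraries (log2 fold change -1.33, SE 0.07, edgeR adjusted p = 6.01e-05), and these counts cover the whole gene rather than the deleted part. On the first principal component of log2 CPM, with 29.3% of the variance, knockout replicate 1 and wild type replicates 1 and 2 lay at -2.62, -19.9 and -17.5, whereas the other 3 libraries lay between 9.41 and 17.4. The libraries thus differed along a line that crosses the genotypes, and no label names a batch along it.

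All 9 factors were detected in every library, and together they took between 0.199% and 0.205% of the counts of a library. Of the 9, 8 had a mean of at least 80 CPM. Klf4 was the exception, with 103 to 199 counts per library. To compare levels between genes, CPM was divided by the length of the merged exons of a gene, in kilobases. On that scale Spi1 was the most abundant, at 172 ± 8.67 CPM per kilobase (SD, n = 6), and its lowest library lay above the highest library of any other factor. Irf5 came next at 82.3 ± 2.80, with 5 of the 6 Cebpb libraries and all libraries of the other factors but Spi1 below its lowest. Cebpb in wild type replicate 1, at 86.0, exceeded every Irf5 library. Cebpa at 68.8 ± 8.12, Maf at 68.0 ± 1.66 and Cebpb at 64.3 ± 11.4 CPM per kilobase overlapped one another. Below them, and without overlap, stood Irf8 at 41.7 ± 2.00, Bhlhe41 at 15.6 ± 0.346, Runx1 at 7.15 ± 0.166 and Klf4 at 1.84 ± 0.305 CPM per kilobase (SD, n = 6 each). The order depends on the length used. With the longest annotated transcript in place of the merged exons, Irf8 came to 84.8 CPM per kilobase and overlapped Maf at 88.1 and Cebpb at 64.3, Runx1 came to 14.7, and Spi1, Irf5, Bhlhe41 and Klf4 kept their order.

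For 6 of the 9 factors, part of the exons is shared with a gene on the opposite strand, and no source used here gives the strand setting of the counting. Cebpb shares 312 bases with Tmem189, which is 20.7% of its exons, and Irf5 shares 411 bases with Tnpo3, 14.2% of its exons. Bhlhe41 shares 1280 bases, 19.1% of its exons, with Gm43909. The shared part of Maf, Cebpa and Runx1 was 5.34%, 1.93% and 0.88% of the exons. Whether the counting told reads of a factor and of its neighbour apart in these stretches is therefore not known.

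**Figure D1:**
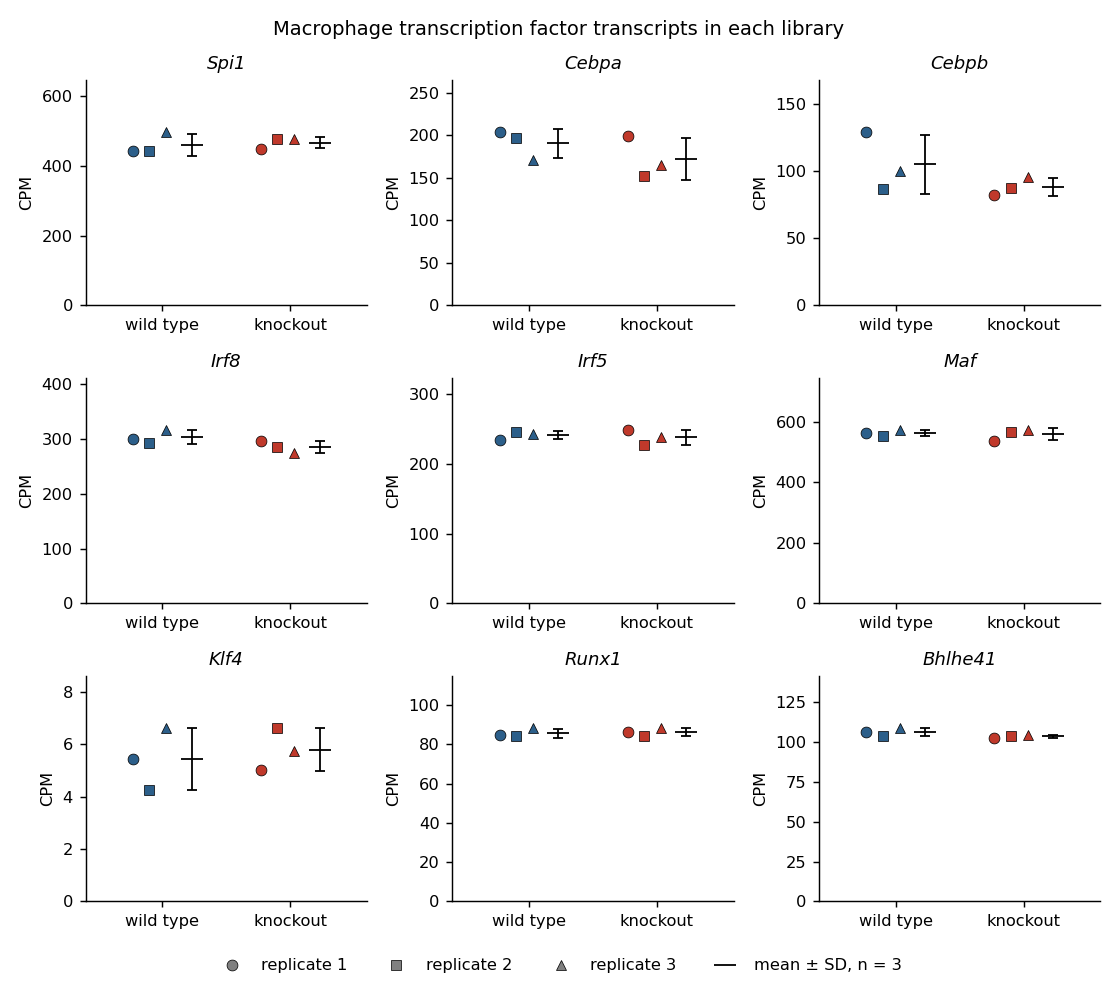
CPM of each of the 9 transcription factors on its own axis from 0, with 3 wild type libraries in blue and 3 knockout libraries in red, marker shapes for the replicate number and a bar for the mean ± SD of each group (n = 3). The ranges of the 2 groups overlap in every panel, and wild type replicate 1 stands apart for Cebpb.

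In the comparison of knockout with wild type, none of the 9 factors passed edgeR's quasi-likelihood test at an adjusted p under 0.05, against 0.103% of all genes tested. None had an unadjusted p under 0.05 either, a level that 5.44% of all genes tested reached. DESeq2's Wald test and limma-voom called 0 of the 9 as well, with 1 and 0 of them at an unadjusted p under 0.05. For none of the 9 did the 3 knockout libraries lie wholly above or below the 3 wild type libraries, which was so for 10.8% of all genes tested. The log2 fold change was negative for 6 of the 9, and negative values made up 50.4% of all genes tested. With library totals in place of TMM scaling 3 of the 9 were negative, and the median over all genes tested was then 0.042 instead of -0.00090. The median log2 fold change of the 9 was -0.017.

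Among the factors that establish the lineage, Spi1 (chromosome 2, 91082390 to 91115756) stood at 447, 478 and 476 CPM in knockout replicates 1 to 3 and at 442, 442 and 498 CPM in wild type replicates 1 to 3. The highest and the lowest library were both wild type, and the knockout libraries fell between them. Its log2 fold change was 0.02 (SE 0.06, 95% confidence interval -0.11 to 0.15, adjusted p = 0.979).

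Runx1 (chromosome 16, 92601466 to 92826149), which encodes a DNA-binding subunit of core binding factor, was measured at 86.2, 84.2 and 88.4 CPM in knockout and at 84.6, 84.0 and 88.3 CPM in wild type libraries. No library departed from the rest, and the highest value was only 1.05 times the lowest. The estimated log2 fold change was 0.01 (SE 0.04, interval -0.09 to 0.11, adjusted p = 0.987).

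Cebpa (chromosome 7, 35119293 to 35121928), required for the step to granulocyte and monocyte progenitors, gave 200 CPM in knockout replicate 1 but 153 and 165 CPM in replicates 2 and 3. In wild type it gave 204, 197 and 171 CPM. The 3 high libraries, knockout replicate 1 and wild type replicates 1 and 2, were those with negative positions on the first principal component. The log2 fold change was -0.15 (SE 0.10, interval -0.37 to 0.08, adjusted p = 0.968). With the component as a term beside genotype it was 0.06, and without knockout replicate 1 it was -0.26 (unadjusted p = 0.0065 in edgeR's test, adjusted p over all genes at least 0.377 in all 15 alternatives).

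Cebpb (chromosome 2, 167688915 to 167690418), whose product drives inflammatory genes and emergency formation of myeloid cells, stood at 82.3, 87.2 and 95.3 CPM in knockout libraries. The wild type libraries were at 129, 86.5 and 99.8 CPM. Wild type replicate 1 was the high one, and the other 5 libraries of both genotypes lay within 82.3 and 99.8 CPM. The log2 fold change of -0.25 (SE 0.12, interval -0.53 to 0.03, adjusted p = 0.932) was the most negative of the 9. It was -0.08 without wild type replicate 1 and -0.38 without wild type replicate 2. Without a filter on low counts, edgeR's test gave an unadjusted p of 0.00071 and an adjusted p of 0.098.

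Of the interferon regulatory factors, Irf8 (chromosome 8, 120736358 to 120756694) was at 297, 286 and 275 CPM in knockout and at 300, 292 and 317 CPM in wild type libraries. The 2 lowest values were knockout and the highest was wild type, but knockout replicate 1 exceeded wild type replicate 2. This corresponded to a log2 fold change of -0.08 (SE 0.05, interval -0.20 to 0.03, adjusted p = 0.961).

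Irf5 (chromosome 6, 29526625 to 29541871) was at 248, 226 and 238 CPM in knockout and at 234, 245 and 242 CPM in wild type libraries. Both the highest and the lowest library were knockout. The log2 fold change was -0.02 (SE 0.05, interval -0.13 to 0.09, adjusted p = 0.979).

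Among the factors of late differentiation, Maf (chromosome 8, 115682942 to 115707794) was at 537, 566 and 573 CPM in knockout and at 562, 553 and 572 CPM in wild type libraries. Knockout replicate 1 was the lowest and knockout replicate 3 the highest. Its log2 fold change was -0.0088 (SE 0.05, interval -0.11 to 0.09, adjusted p = 0.987).

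Bhlhe41 (chromosome 6, 145858243 to 145865558) was at 102.7, 103.5 and 104.1 CPM in knockout and at 106.3, 103.5 and 108.9 CPM in wild type libraries, with wild type replicates 3 and 1 the highest. Although its knockout libraries differed by little, wild type replicate 2 lay among them. The log2 fold change was -0.04 (SE 0.04, interval -0.13 to 0.06, adjusted p = 0.972).

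Klf4 (chromosome 4, 55527143 to 55532466), a factor of monocyte differentiation, was at 5.01, 6.62 and 5.74 CPM in knockout and at 5.43, 4.23 and 6.60 CPM in wild type libraries. Knockout replicate 2 and wild type replicate 3 were high and wild type replicate 2 was low. The log2 fold change was 0.09 (SE 0.18, interval -0.31 to 0.49, adjusted p = 0.979), the widest interval of the 9.

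The intervals bound the size of a difference that would be compatible with the 6 libraries. For 6 of the 9 factors, Spi1, Irf8, Irf5, Maf, Runx1 and Bhlhe41, the 95% interval of the knockout level lay within 1.2-fold of wild type in either direction. For Cebpa it reached down to 0.775 of the wild type level and for Cebpb to 0.691. For Klf4 it ran from 0.809 to 1.41 times the wild type level. A p above the threshold does not show that the genotypes were alike for any of the 9. The intervals rest on the spread between wells, which may be technical only, so they do not bound a difference between animals.

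**Figure D2:**
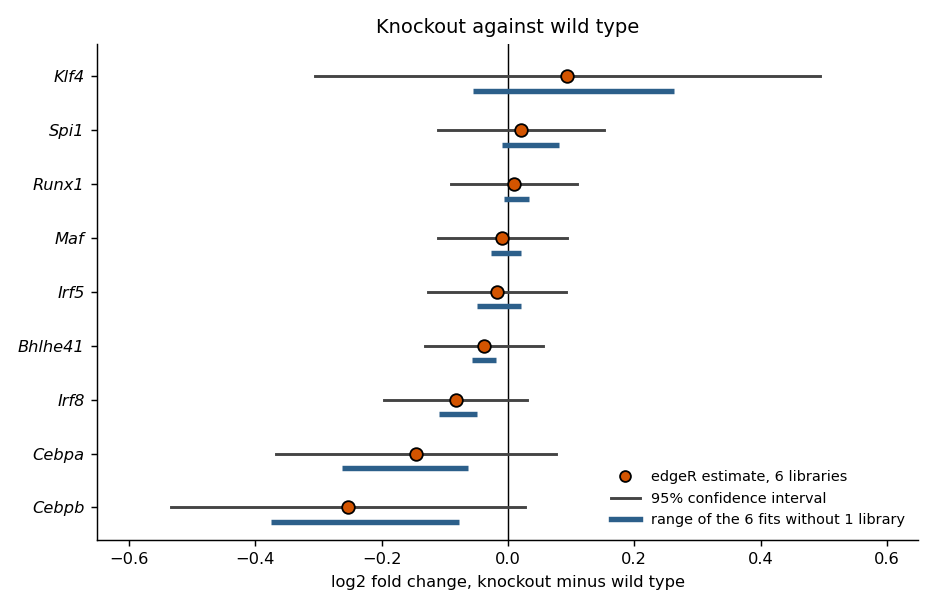
Log2 fold change of each factor, knockout minus wild type, as the edgeR estimate over 6 libraries (point), its 95% confidence interval (dark line) and the range of the 6 fits that leave out 1 library (blue line). Every interval crosses 0; that of Klf4, from -0.31 to 0.49, is the widest.

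The spread over the 6 libraries, taken without regard to genotype, differed between the factors. Bhlhe41, Runx1 and Maf had coefficients of variation of 2.22%, 2.32% and 2.44%, and 3.06%, 3.67% and 4.51% of all genes tested had a smaller SD of log2 CPM. These shares are over all 13588 genes tested, of which 8249 averaged at least 10 CPM, and not over genes of like level. Irf5 followed at 3.40%, Irf8 at 4.80% and Spi1 at 5.04%. The most variable were Cebpa at 11.8%, Klf4 at 16.6% and Cebpb at 17.7%. For Klf4 the counting error alone amounts to 8.13%, whereas for Cebpa and Cebpb it is 1.43% and 1.97%, so the spread of those 2 lies well above counting error. For Runx1 and Bhlhe41 it is 2.08% and 1.89%, close to their whole spread. The median SD of log2 CPM was 0.069 for the 9 factors against 0.11 for all genes tested, and 6 of the 9 lay below that median. For genes of at least 10 CPM on average, a level that Klf4 alone of the 9 missed, the median was 0.074.

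**Figure D3:**
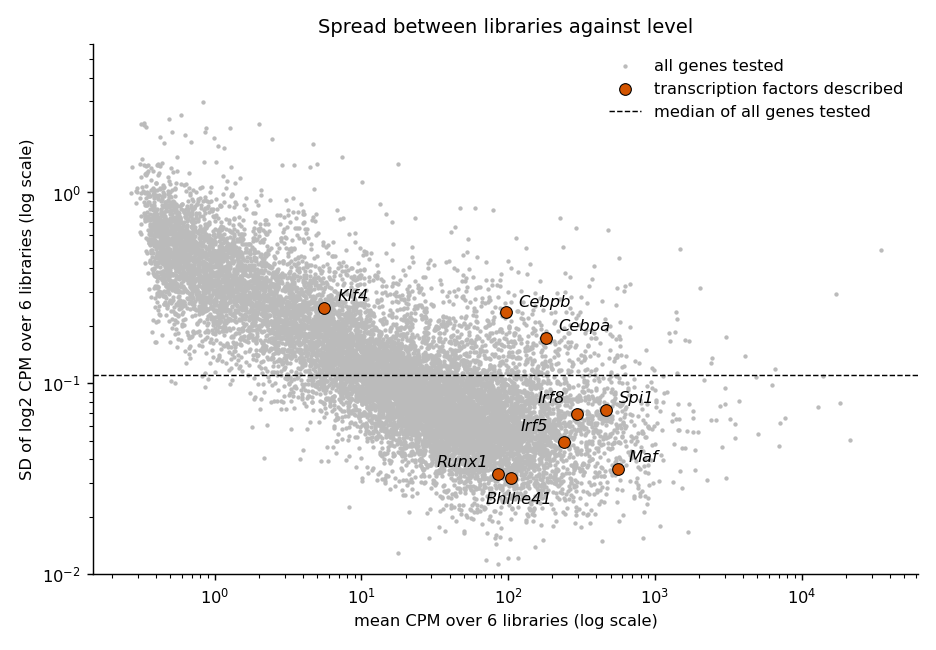
SD of log2 CPM over 6 libraries against mean CPM, both on log scales, for all genes tested (grey) and the 9 transcription factors (orange), with a dashed line at the median SD of all genes tested, 0.11. Cebpa, Cebpb and Klf4 lie above the line, and Bhlhe41, Runx1 and Maf lie lowest of the 9.

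Ratios of 2 factors within a library do not depend on scaling, and 5 were compared between genotypes on the log2 scale of counts per kilobase. The smallest p that an exact permutation test of 3 against 3 libraries can give is 0.1, so none of them could reach 0.05. The ratio of Spi1 to Cebpa was 1.42 ± 0.252 in knockout and 1.24 ± 0.232 in wild type (SD, n = 3 each; two-sided exact permutation p = 0.5). Knockout replicates 2 and 3 and wild type replicate 3 had the high ratios, between 1.501 and 1.61, while the other 3 libraries lay between 1.08 and 1.14. They were the libraries in which Cebpa was low. The ratio of Irf8 to Irf5 was -1.01 ± 0.0663 against -0.949 ± 0.0712 (exact permutation p = 0.3, n = 3 each). Irf8 to Cebpa, Cebpb to Cebpa and Maf to Klf4 differed by 0.07, -0.08 and -0.12 with exact p of 0.5, 0.5 and 0.6. Leaving out 1 library turned the sign of each of these 3: they ran from -0.014 to 0.18, from -0.24 to 0.076 and from -0.26 to 0.035. Spi1 to Cebpa ran from 0.074 to 0.31, lowest without knockout replicate 2 and highest without knockout replicate 1, and Irf8 to Irf5 from -0.11 to -0.034. Adjusted over the 5 ratios, each p was 0.6.

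The promoter windows of the factors, from 250 bases before to 50 bases after the start in RefSeq (GRCm38.p6), were searched on both strands for short words that these families bind. Windows were found for 7 of the 9 factors, all but Spi1 and Maf, and Irf8 and Runx1 have 2 each, which makes 9 windows. The E-box word CACGTG, which BHLHE41 and other basic helix-loop-helix proteins bind, stood in the windows of 3 factors and in 7.15% of 32851 promoter windows. The stretches below show it in capitals, with 12 bases on either side, because it is the one word found in more than 1 factor and the Bhlhe41 promoter is among them.
Klf4: cgcccccgccccCACGTGcgcggagtttgt
Runx1: catcacttaagtCACGTGattggcaagagc
Bhlhe41: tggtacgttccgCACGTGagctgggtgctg
They lie on the minus strand at chr4:55532640-55532669, chr16:92826128-92826157 and chr6:145865556-145865585, with the word starting 182, 71 and 153 bases before the RefSeq start. The Runx1 word falls inside the gene as GENCODE draws it. The flanking bases differ between the 3 genes. Klf4 was highest in knockout replicate 2, Runx1 in knockout replicate 3 and Bhlhe41 in wild type replicate 3. For Runx1 and Bhlhe41 the coefficients of variation, 2.32% and 2.22%, were close to the counting error of 2.08% and 1.89%. Their order of libraries therefore cannot bear on a shared control, which was not tested.

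The RUNX word TGTGGT was found in the same Runx1 window at 29 and 37 bases after the start, on the minus strand relative to the gene, and in 16.8% of all windows. None of the 9 windows held the PU.1 word GAGGAAGT (3.20% of all windows), the C/EBP word TTGCGCAA (0.183%), the IRF word GAAANNGAA (8.56%), the MAF word TGCTGAC (4.67%) or the KLF word GGGTGTGG (3.56%). Of the 9 windows, 8 were richer in G and C than the median window, which had 52.7%. The shares of all windows given for the words are over windows of any base composition. They are therefore not rates for windows as rich in G and C as these. The window of Cebpb was the richest, at 80.7% with 50 CpG dinucleotides, and the second Runx1 window the poorest at 45.0% with 2. A word is a match of letters only, and its absence concerns these windows alone.

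**Figure D4:**
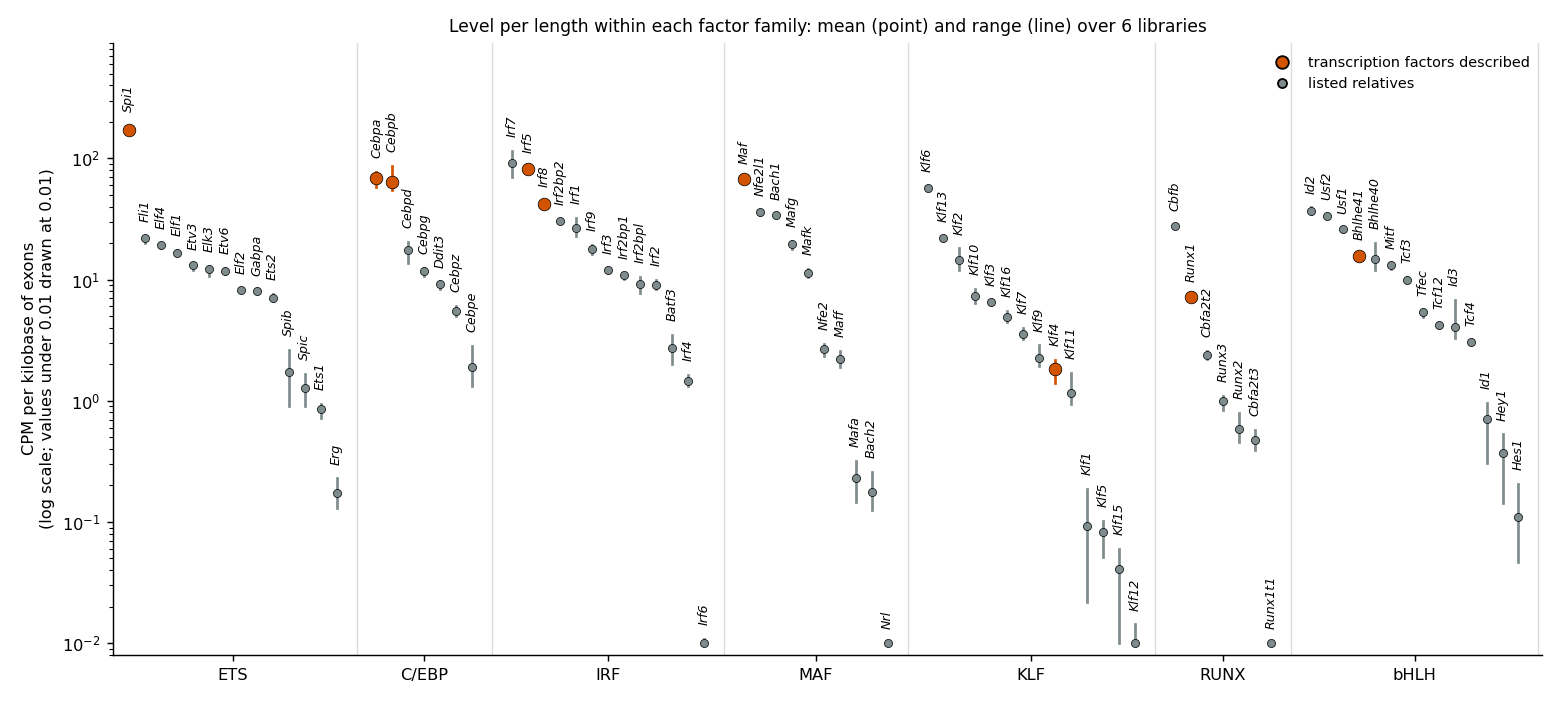
CPM per kilobase of exons on a log scale for each factor (orange) and its listed relatives (grey), by family, as the mean (point) and range (line) over 6 libraries; values under 0.01 are drawn at 0.01. Spi1, Cebpa and Maf head their families, while Klf4 ranks 9 of 14.

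Within their families, the factors differed in rank by level per kilobase. Spi1 stood 7.75 times above the next ETS gene, Fli1, at 22.2 ± 1.09 CPM per kilobase (SD, n = 6). Cebpa and Cebpb ranked 1 and 2 of 7 C/EBP genes, 3.91 and 3.65 times the level of Cebpd. Maf was the highest of 10 genes of its list, at 1.90 times Nfe2l1. Irf5 and Irf8 ranked 2 and 3 among 13 genes of interferon regulatory factors and their binding proteins, below Irf7 at 90.8 ± 16.4 CPM per kilobase. The ranges of Irf7 and Irf5 overlapped, and by the longest transcript Irf5 was first. Runx1 ranked 2 of 7, behind Cbfb, the common non-DNA-binding partner of RUNX proteins, at 27.6 ± 0.578. Bhlhe41 ranked 4 of 14 helix-loop-helix genes, headed by Id2 at 37.1 ± 1.91, and 5 by the longest transcript. Klf4 ranked 9 of 14 Krüppel-like factor genes, at 0.0324 of the level of Klf6. The next relatives by level were Bach1 at 34.0, Usf2 at 33.6, Irf2bp2 at 30.7, Klf13 at 22.1, Elf4 at 19.4, Cebpg at 11.7 and Cbfa2t2 at 2.40 CPM per kilobase.

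Of the 70 relatives listed, 63 were tested, and none was called between genotypes by edgeR, against 0.103% of all genes tested. At an unadjusted p under 0.05 there were 6, 3 higher and 3 lower in knockout, beside 5.44% of all genes tested. Groups did not overlap for 7 of the 63, a share near the 10.8% of all genes tested. DESeq2's Wald test called 0 of the 63. Their median log2 fold change was -0.011. Spic, an ETS factor of red pulp macrophages, ranged from 3.461 to 4.6 CPM in knockout and from 5.177 to 6.429 CPM in wild type libraries, with every knockout library below every wild type library (log2 fold change -0.54 with SE 0.15 and adjusted p = 0.734). Spib, a PU.1 paralog of B cells and plasmacytoid dendritic cells, differed by -0.85 on the log2 scale (SE 0.26, adjusted p = 0.774). It was high in wild type replicates 1 and 2, at 7.52 and 7.48 CPM, and at 2.60 to 4.06 CPM in the other libraries. Irf2, which opposes IRF1, was at -0.16 (SE 0.05, adjusted p = 0.755) without overlap, and Irf2bp1 at 0.11 (SE 0.05). Besides Spic and Irf2, the relatives without overlap were Elk3, Irf2bp1, Mafg, Klf16 and Cbfa2t2, all higher in knockout. Elk3, an ETS gene named after its values were seen, was at 0.17 (SE 0.06, adjusted p = 0.795 by edgeR).

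In the C/EBP list, Cebpe, a factor of granule formation in neutrophils, averaged 2.77 ± 0.632 CPM in knockout against 1.90 ± 0.421 CPM in wild type (SD, n = 3 each), a log2 difference of 0.55 (SE 0.24, adjusted p = 0.908). Ddit3, a stress-induced C/EBP protein, differed by 0.06 (SE 0.07). Mafg, a small MAF protein, was at 115, 116 and 117 CPM in knockout and 111, 106 and 101 CPM in wild type libraries (0.13, SE 0.05, adjusted p = 0.881). Its knockout libraries all lay above the wild type libraries, and Mafk had a log2 fold change of -0.08 (SE 0.06). Klf7 and Klf16 had log2 fold changes of -0.14 and 0.16, and Cbfa2t2 and Runx2 of 0.10 and -0.20, with none at an unadjusted p under 0.05. Id3 and Hey1 were at 0.35 (SE 0.25) and -0.56 (SE 0.41), and for Id3 the difference came with knockout replicate 2, at 12.2 CPM against 5.90 to 6.64 CPM in the other 5 libraries. Hey1 was at -1.1 without knockout replicate 1 and -0.22 without knockout replicate 2, and Runx2 at -0.36 without wild type replicate 3 and -0.0020 without wild type replicate 1.

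Regulators of tissue macrophages and of other blood lineages were read beside the 9 factors. Of 16 tissue macrophage regulators 13 were tested and none was called by edgeR. At an unadjusted p under 0.05 there was 1, Spic, beside 5.44% of all genes tested. Nr1h3, the oxysterol receptor LXR alpha, had the same 3 high libraries as Cebpa: 103 CPM in knockout replicate 1 and 102 and 111 CPM in wild type replicates 1 and 2, against 66.0 to 75.7 CPM in the others. Hhex differed by 0.14 on the log2 scale (SE 0.09). Zeb2 was at 448 ± 18.6 in knockout and 468 ± 2.99 CPM in wild type (SD, n = 3 each), and Sall1, a regulator of microglia, had a count of 0 in every library. Of 24 regulators of other lineages 23 were tested and none was called, with 3 lower at an unadjusted p under 0.05, beside the same 5.44%. Pax5, the B cell factor, was at 0.533 ± 0.0361 against 0.979 ± 0.205 CPM and Myb, a factor of progenitors, at 1.57 ± 0.271 against 2.72 ± 1.00 CPM (SD, n = 3 each), so both means lay below those of all 9 factors, Klf4 being the nearest. Gata2, named after its values were seen, was the other one (log2 difference -1.04, SE 0.40, adjusted p = 0.903). Atf3 and Lmo2 were the most abundant of this list, at 103 and 90.6 CPM per kilobase, and differed by -0.06 and -0.00035 on the log2 scale.

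Genes listed as targets of the factors were tested in 3 groups; the lists were drawn up with earlier results of these data known, and Timd4 and Vsig4 were among the genes already seen to fall. Of 50 genes 45 were tested and 3 were called by edgeR, all lower in knockout, against 0.103% of all genes tested. The median log2 fold change of the 45 was -0.023. Among 20 targets of PU.1 and C/EBP the median was 0.0061 and the called gene was Lyz2, which carries the Cre insertion. It had 730183, 711659 and 686762 counts in knockout and 1052287, 1016850 and 1253111 counts in wild type libraries, and fell by 0.89 on the log2 scale (SE 0.08, adjusted p = 0.00415). No other gene of this list was called. Spp1, with the next smallest p, differed by 0.11 (SE 0.05, adjusted p = 0.918), and Ctsb, next to Lyz2 in level, by -0.02 (SE 0.07).

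Of the IRF8 and IRF5 targets 13 of 15 were tested, with a median log2 fold change of -0.16 and none called by edgeR. Of the 13, 2 were lower at an unadjusted p under 0.05, beside 5.44% of all genes tested in either direction. Ciita, the transactivator of MHC class II genes, was at 85.6, 72.0 and 78.8 CPM in knockout and 97.4, 95.5 and 113 CPM in wild type libraries. All knockout libraries were below all wild type libraries (log2 fold change -0.37, SE 0.08, adjusted p = 0.344). It was called lower in 2 of 15 alternatives, DESeq2's Wald test (adjusted p = 0.00722) and edgeR without a filter (adjusted p = 6.51e-05). Without knockout replicate 2 or 3 edgeR's adjusted p was 0.9999 or 0.9986. Ccl5, a chemokine gene, differed by -0.49 on the log2 scale (SE 0.17, adjusted p = 0.881), with wild type replicate 3 the highest at 76.5 CPM. Without that library it was -0.22, and without wild type replicate 1 it was -0.61. In 2 of 15 alternatives edgeR called Ccl5 lower. They were the fit without a filter (adjusted p = 6.02e-05) and that with the first principal component as a term (-0.82, adjusted p = 0.00304), a choice made after seeing the data. The highest of this list by level, Ctss and Cst3, had log2 fold changes of -0.08 and 0.12.

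Of the MAF and KLF4 targets 12 of 15 were tested, with a median log2 fold change of -0.022, and 2 fell. Chil3, a chitinase-like gene of alternative activation named here after its values were seen, lay the other way, with every knockout library above every wild type library (log2 difference 0.33, SE 0.07, adjusted p = 0.410 by edgeR). DESeq2's Wald test called it higher, as did edgeR without a filter. Timd4, a receptor for phosphatidylserine on resident macrophages, had 5, 8 and 8 counts in knockout and 29, 38 and 40 in wild type libraries (log2 fold change -2.58, SE 0.33, adjusted p = 0.0283). Vsig4, a complement receptor, had 12, 8 and 18 against 55, 50 and 52 counts (-2.28, SE 0.32, adjusted p = 0.0411; 0.061 with the replicate number as a block). No knockout library reached a wild type library for either gene, yet both lost the call in each of the 6 fits without 1 library, with adjusted p up to 0.193 for Timd4 and 0.207 for Vsig4. The log2 fold changes in those fits stayed between -2.75 and -2.33 for Timd4 and between -2.70 and -2.02 for Vsig4. In bulk RNA, fewer cells of a type and less RNA per cell cannot be told apart. The complement genes C1qa and C1qb, the most abundant of this list, were at -0.18 (SE 0.08, adjusted p = 0.918) and -0.02 (SE 0.06), and Retnla had a count of 0 in every library.

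**Figure D5:**
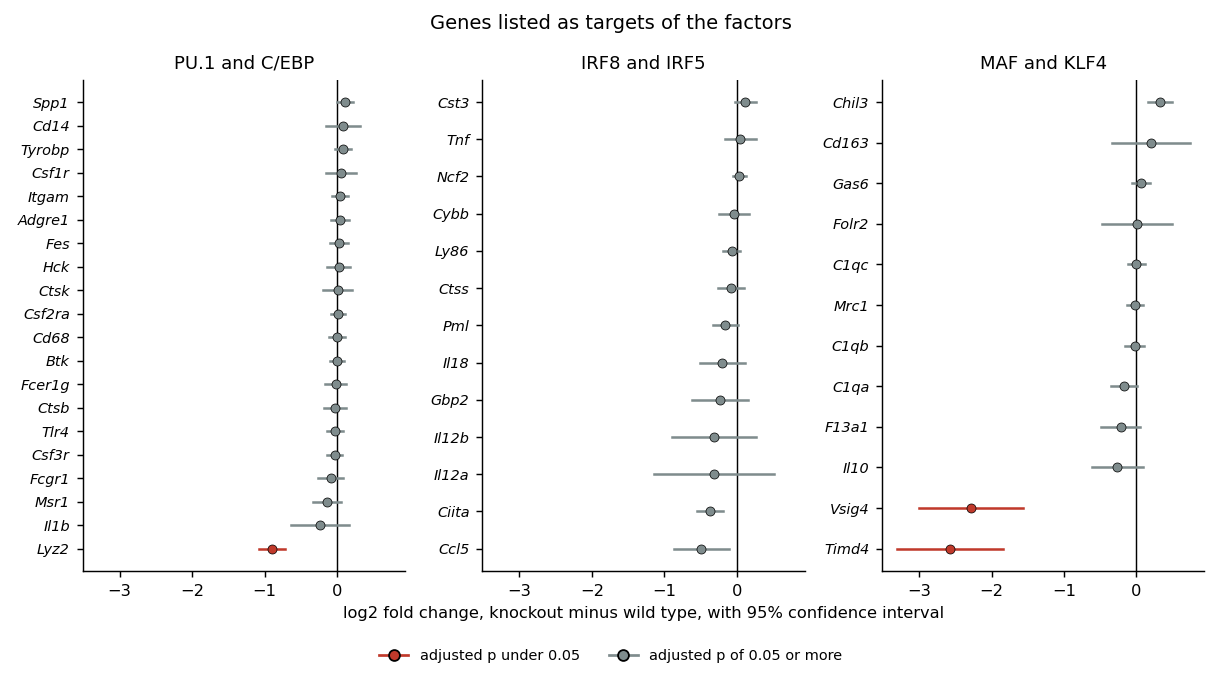
Log2 fold change, knockout minus wild type, with its 95% confidence interval for the tested genes of the 3 target lists; genes with an adjusted p under 0.05 in red, the others in grey. Lyz2, Timd4 and Vsig4 lie to the left of 0, and the estimates of the other genes lie between -0.49 and 0.33.

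Markers of the cell types that a marrow culture can hold were summed per library. Of the 8 macrophage markers, all were present in every library, at 32130 to 36020 CPM in knockout and 50790 to 59820 CPM in wild type, a sum made up mostly of Lyz2; their median log2 fold change was 0.02. The 12 neutrophil markers summed to 1003 to 1072 CPM in knockout and 679 to 908 CPM in wild type libraries, without overlap. Lymphocyte markers ran from 81.0 to 112 against 110 to 168 CPM, a sum made up mostly of Cd4, and dendritic cell markers from 24.1 to 36.8 against 34.7 to 43.4 CPM, and mast cell and basophil markers from 13.1 to 20.4 against 20.2 to 29.1 CPM. Erythroid and megakaryocyte markers ran from 102 to 152 against 127 to 210 CPM, with Hbb-bs at 0 throughout, and stromal markers from 37.9 to 56.8 against 31.0 to 80.3 CPM. By edgeR, Lyz2 was the one marker called. An unadjusted p under 0.05 was reached by 5.44% of all genes tested. At that level 7 of 12 neutrophil markers were higher and 1 was lower. Lower were 4 of 5 tested lymphocyte, 3 of 8 dendritic cell, 5 of 6 mast cell and basophil and 4 of 6 erythroid and megakaryocyte markers. Of these 4 lists 0 markers were higher. Their part in the values of Spib, Pax5, Cebpe, Ciita, Timd4 and Vsig4 was not tested.

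For Klf4, the factor with the largest SD of log2 CPM, the protein-coding genes with the most similar pattern over the 6 libraries were Galk2, Blmh, Nop53, Unc119 and Aimp1, with Pearson r from 0.981 to 0.996 among 8138 genes that averaged 10 CPM or more. They share its order of a low wild type replicate 2 and high knockout replicate 2 and wild type replicate 3. The levels of Galk2 ran only from 66.6 to 76.4 CPM. With 6 libraries, 101 genes reached r above 0.9, so the list is a description of these libraries.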

How the data were processed

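RNA-seq libraries of 3 knockout and 3 wild type wells were analysed. The authors deposited raw counts per gene, made from reads on GRCm38 by HISAT2 and featureCounts, as the submitters' processing notes list; the sources used here give no versions, annotation release or strand setting. Symbols, positions and exon lengths came from GENCODE M21 on the same build; 55240 IDs matched and 181 did not. Counts were TMM-scaled, filtered with filterByExpr and compared with edgeR 4.0.16 (R 4.3.3), two-sided quasi-likelihood test, genotype as the only term, Benjamini-Hochberg adjustment over 13588 genes, calls at an adjusted p under 0.05. The common biological coefficient of variation was 0.0744. Standard errors were derived from the F statistic. Counting error was 0.815% to 8.13% of the level of a factor, below its spread over the 6 libraries for each of the 9. Within a group, any 2 libraries differed by more than sampling noise (chi-square per degree of freedom 3.89 to 19.6).

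The factors and lists were chosen with earlier results of these data known. Named were all 9 factors; in each list of relatives, regulators and targets every called gene, the 2 with the smallest p and the 2 with the highest level per kilobase; of marker lists only sums; and the 5 genes most like the most variable factor. Alternatives were other scalings, DESeq2 1.42.0, limma 3.58.1 (voom), 2 other filters, the replicate block, the longest transcript, and leaving out each library; the first principal component as a term was added after seeing the data.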

Additional observations from a re-analysis of the deposited data

How the results depend on the processing

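None of the 9 factors was called in any of the 15 alternatives (Klf4 was not tested at a mean of at least 10 CPM). Over all genes the count of calls was 14, and it was 40 with the DESeq2 Wald test, 151 without a filter, 5 with a filter at a mean of 10 CPM, 124 with the first principal component as a term, a choice made after seeing the data, and 4 to 12 in the 6 fits without 1 library. Relatives called went from 0 to 1 without a filter (Spib) and to 3 with the component as a term (Bhlhe40, Irf1 and Irf7). Target genes called went from 3 to 5 with the DESeq2 test, 6 without a filter, 1 at a mean of at least 10 CPM and 7 with the component as a term, and to 1, Lyz2, without each single library.

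Directions of log2 fold changes near 0 were not stable. With library totals they were 0.0054 for Bhlhe41, 0.025 for Irf5 and 0.035 for Maf, and without a filter Maf was at 0.00053. With the component as a term they were 0.063 for Cebpa, 0.0058 for Irf5, -0.19 for Klf4, -0.016 for Runx1, -0.085 for Spi1, -0.0011 for Ddit3, 0.20 for Hey1 and 0.18 for Runx2. Leaving out 1 library gave -0.048 to 0.020 for Irf5, -0.055 to 0.26 for Klf4, -0.027 to 0.021 for Maf, -0.0069 to 0.033 for Runx1, -0.0086 to 0.080 for Spi1 and -0.050 to 0.53 for Id3. The cause was not tested.

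Whether the replicate numbers pair the libraries cannot be settled with 3 libraries per group. Deviations from the group mean correlated at 0.057, -0.12 and 0.039 for same-numbered libraries. Not every library correlated best with its own number (knockout replicate 2 with wild type replicate 3 at 0.14). With the replicate number as a block 17 genes, 0 factors, 0 relatives and 2 targets were called, and the ratios gave exact p of 0.5 to 1, where 0.25 is the smallest possible. Depth limits Timd4 and Vsig4, with 5 to 18 counts per knockout library.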
